A study of Mus musculus with 3 samples.

Results

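The tripartite motif (TRIM) genes were described in RNA bound to the chromatin of mouse macrophages. Members were all genes whose symbol is Trim followed by a number and an optional letter from a to e, with at least 1 protein-coding transcript. This rule, which used no measured value, gave 68 genes of 22028 protein-coding genes and 55536 annotated genes. TRIM family genes with other symbols, such as Pml, were not members.

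All 3 libraries belonged to 1 group, numbered as biological replicates 1, 2 and 3. The cells were macrophages derived from bone marrow, the phagocytes that grow out of marrow in culture, and the mice were C57BL/6J. They received Lipid A, the Toll-like receptor 4 agonist of bacterial lipopolysaccharide, at 100 ng/ml for 12 h, were washed out for 12 h, and received Lipid A at 100 ng/ml again for 40 min. No untreated or singly treated sample was analysed here, so every value is a level after this schedule and not a response to it. The RNA was depleted of ribosomal RNA. The labels give the same strain-level donor for all 3 libraries and no sex or age, so the spread between them may be partly technical.

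TRIM proteins carry a RING finger that binds a ubiquitin-charged E2 enzyme, then B-box zinc fingers and a coiled coil, and most act as ubiquitin ligases. Their C-terminal domains differ and set what they bind. In macrophages many family members are induced by interferon and either restrict viruses or tune signalling from Toll-like receptors and cytosolic nucleic acid sensors.

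The libraries held 13802716, 17187524 and 16502809 expected counts in annotated genes, for replicates 1, 2 and 3. The RNA inputs were 1 µg, 250 ng and 500 ng in the same order. TRIM genes took 0.302% ± 0.014 (SD, n = 3) of all counts and 0.478% ± 0.004 of the counts in protein-coding genes. All 10 macrophage markers were detected, led by Adgre1, and 0 of 10 neutrophil, 2 of 10 T cell, 1 of 8 B cell, 1 of 8 erythroid and 4 of 8 fibroblast markers were. The T cell markers detected were Cd4, with a mean of 164 counts, and Cd5, with 76.7, while Cd3e had 0 counts in every library. In a second deposited quantification, made from the reads, Cd3e measured 0.04 TPM, Cd3d 15.6 TPM and Thy1 12.5 TPM. The summed level of the fibroblast list was 4.49, 6.23 and 6.42 TPM and that of the macrophage list 1120, 1254 and 1159 TPM. Their part in the results was not tested.

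Sequences are shown first for the TRIM promoters of the interferon-induced or antiviral list that hold the core of an interferon-stimulated response element (ISRE), because these genes include many of the highest TRIM genes below. The core was searched as GAAANNGAA on either strand, from 250 bases before to 50 after each RefSeq start (GRCm38.p6). Each line gives the strand on which the motif reads forward, 5′ to 3′, with the core in capitals and 10 bases on each side.
Trim30a: caggaactgaGAAAAAGAAactaaagaac
Trim30d: caggaactgaGAAAAAGAAactaaagaac
Trim12a: ctctggaaatGAAACAGAAaccacaactc
Trim5: ctctggaaatGAAACAGAAaccacaactc
Trim12c: agctggaaatGAAACAGAAaccacaactc
Trim34a: gcagagaaaaGAAACTGAAactccaaacc
Trim34b: ggtggcacagGAAAGAGAAggcagaagga
Trim21: cctctgagagGAAACTGAAagtgaaattt
Trim25: ggaaggaatcGAAACTGAAcaggaggggc
Trim26: ccgagaaaagGAAAGTGAAatcggaagcg

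The Trim30a stretch lies at chr7:104465210-104465238, and that of Trim30d at chr7:104507871-104507899. These 29 bases differed at 0 positions. The stretches of Trim12a (chr7:104315466-104315494) and Trim5 (chr7:104288136-104288164) also differed at 0 positions, and each differed from that of Trim12c (chr7:104353359-104353387) at 2. The core began 35 bases before the start in Trim30a, 40 before in Trim30d, 9 before in Trim25 and 13 after in Trim21. In Trim26 (chr17:36836977-36837005) it began 159 bases before the start, and an overlapping match began at 153. Trim21 had an overlapping match as well, which began 19 bases after the start. Trim34a (chr7:104244458-104244486), Trim21 (chr7:102565451-102565479), Trim25 (chr11:88999384-88999412) and Trim34b (chr7:104329250-104329278) complete the 10 shown, and in Trim34b the core lay 211 bases before the start. A second RefSeq start of Trim30a had a core that began 3 bases after it.

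Of 68 TRIM genes, 53 had a RefSeq promoter in the table and 12 of these (22.6%) held the core, against 9.76% of all 27025 genes and 8.56% of all 32851 promoters. Among the TRIM genes known as interferon-induced or antiviral, 10 of 14 held it, and among the other TRIM genes 2 of 39 did, namely Trim2 and Trim7. The 10 are not independent genes. Their stretches were identical in Trim30a and Trim30d and in Trim12a and Trim5, and that of Trim12c differed from the last pair at 2 positions. Trim30b, Trim30c, Trim38 and Trim56 were on the interferon list without a match in this window, and Trim14 was among the 15 genes with no entry. The windows of Trim30b (chr7:104358597-104358896) and Trim38 (chr13:23782291-23782590) lie inside the annotated genes, so the outermost starts of these genes were not searched. An NF-kB type motif, searched as GGANNTTCC on either strand, was found in the promoters of Trim28 and Trim71, 2 of 53 genes (3.8%), against 4.86% of all genes and 4.26% of all promoters. A match is a match of letters only. The 250 bases before the start are given for Trim30a (chr7:104465194-104465443, minus strand) and Trim25 (chr11:88999153-88999402, plus strand), the highest member and the ligase of RIG-I, on the strand of the gene with the core in capitals as its reverse complement.
Trim30a: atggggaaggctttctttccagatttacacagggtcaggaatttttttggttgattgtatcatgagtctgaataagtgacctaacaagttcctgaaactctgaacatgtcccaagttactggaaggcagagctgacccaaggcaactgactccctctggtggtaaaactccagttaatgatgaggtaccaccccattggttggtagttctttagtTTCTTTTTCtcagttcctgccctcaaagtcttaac
Trim25: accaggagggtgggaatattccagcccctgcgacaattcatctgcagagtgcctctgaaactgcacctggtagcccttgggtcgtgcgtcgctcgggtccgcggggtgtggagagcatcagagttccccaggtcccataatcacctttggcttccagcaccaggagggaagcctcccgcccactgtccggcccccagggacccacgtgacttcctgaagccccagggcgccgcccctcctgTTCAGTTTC

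A TRIM gene was called detected where its expected counts averaged 10 or more over the 3 libraries. By this measure 43 of 68 TRIM genes (63.2%) were detected, against 49.7% of protein-coding genes. Levels are given as TPM, a unit of transcript abundance that is scaled by transcript length and can be compared between genes. The TPM of a gene sums all its annotated transcripts, whether protein-coding or not. The median of the detected TRIM genes was 8.71 TPM, beside 7.32 TPM over the detected protein-coding genes. A percentile gives a gene's rank by mean log2(TPM + 1) within the protein-coding genes. In bulk RNA, fewer cells that express a gene and less RNA per cell cannot be told apart. At percentile 90 or above stood 13 TRIM genes (19.1%), against 10% of protein-coding genes by construction. TRIM genes summed to 1329 TPM, and the 4 highest, Trim30a, Trim30d, Trim12a and Trim25, held 49.9% of it.

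**Figure D1:**
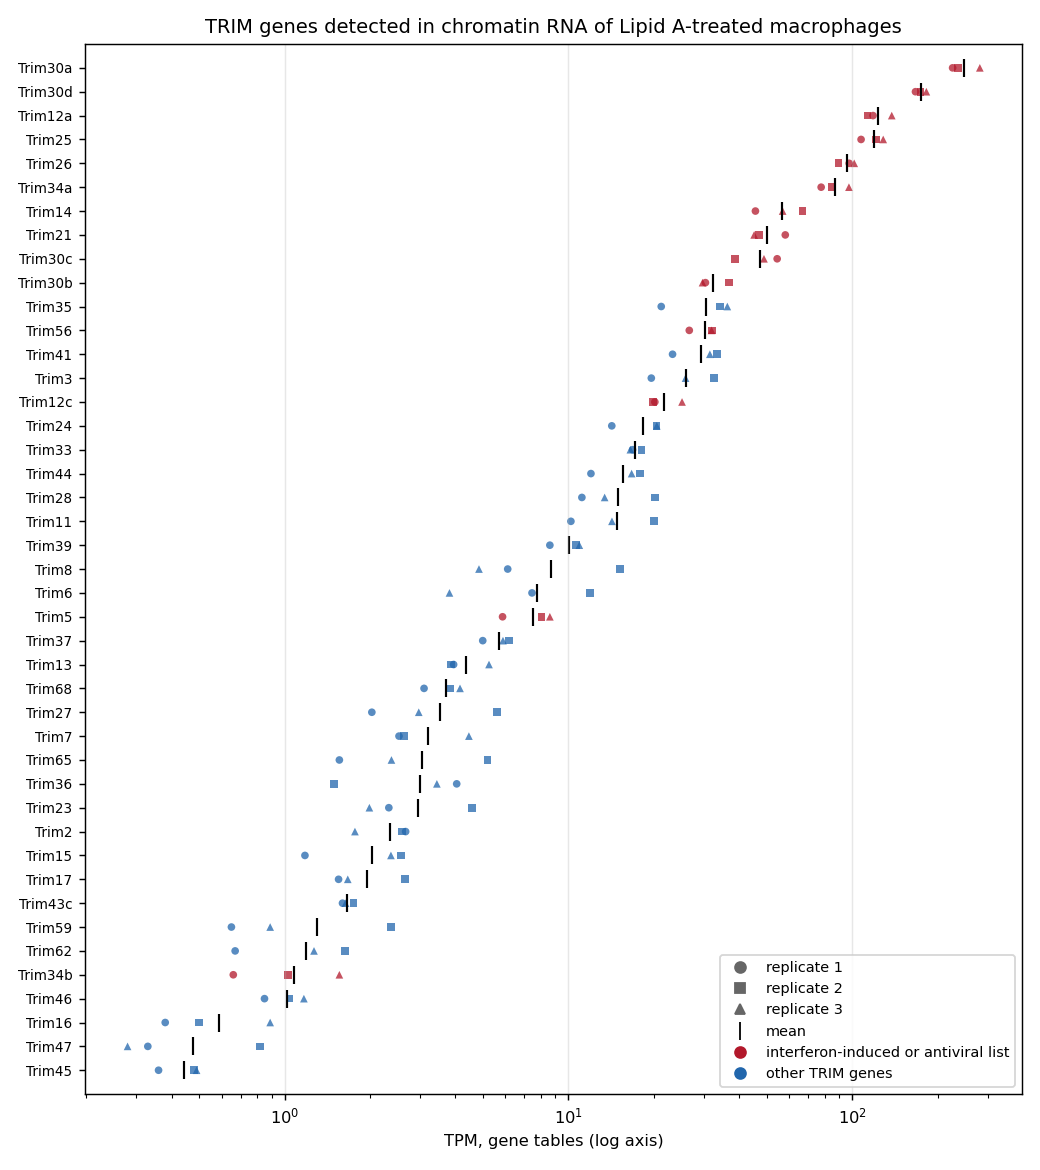
Level in TPM (log axis) of the 43 detected TRIM genes in replicates 1, 2 and 3, ordered by mean, with the mean as a bar and genes of the interferon-induced or antiviral list in red. The 10 highest genes, all red, lie between 32.3 and 247 TPM on average.

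The interferon-induced or antiviral TRIM genes were the highest group. Of 15 on the list, 14 were detected and 11 stood in the top decile, with a median of 50.04 TPM, and together they held 82.2% of the TRIM TPM. Of the other 53 TRIM genes, 29 were detected and 2 stood in the top decile, Trim35 and Trim41, with a median of 0.59 TPM. The list was drawn up from the known roles of its genes but with earlier results of these data in view, so its level is a description.

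Trim30a was the highest TRIM gene. It encodes a ligase known to promote the loss of TAB2 and TAB3 and so to limit NF-kB signalling from Toll-like receptors. It lies at chr7:104409025-104465193 (mm10, minus strand) and measured 225, 235 and 281 TPM in replicates 1, 2 and 3, or 247 ± 29.7 (SD, n = 3), at percentile 99.2. Its relative Trim30d measured 167, 174 and 182 TPM (174 ± 7.74). Replicate 3 was the highest in both, and the lowest Trim30a value lay above the highest Trim30d value.

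Trim12a and Trim25 came next. Trim12a, a mouse relative of the retroviral restriction factor TRIM5, measured 118, 113 and 138 TPM (123 ± 13.0). Trim25, the ligase that ubiquitinates the RNA sensor RIG-I, measured 107, 121 and 128 TPM (119 ± 10.7) at chr11:88999376-89020293. The values of these neighbours in rank overlapped, so their order was not resolved, while Trim30d lay above Trim12a and Trim25 above Trim26 in all 3 libraries.

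Trim26, known to act on the transcription factor IRF3, measured 97.4, 89.4 and 102 TPM (96.1 ± 6.17). Trim34a measured 77.6, 84.8 and 97.2 TPM (86.5 ± 9.93). Its range overlapped with that of Trim26, but it lay below Trim26 within each of the 3 libraries. Trim14, an adaptor of the mitochondrial antiviral signalling protein MAVS, measured 45.6, 66.8 and 56.8 TPM (56.4 ± 10.6). Trim21, the cytosolic antibody receptor, measured 58.0, 47.0 and 45.1 TPM (50.04 ± 6.99). Trim14 was lowest and Trim21 highest in replicate 1, and their ranges overlapped. In TPM, replicate 1 was the lowest library in 64.0% of the detected protein-coding genes and the highest in 7.64%.

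The remaining members of the list were lower. Trim30c measured 54.3, 38.6 and 48.8 TPM (47.2 ± 8.003) and Trim30b 30.4, 36.8 and 29.7 TPM (32.3 ± 3.95). Trim56, a ligase linked to the DNA-sensing adaptor STING, measured 26.6, 32.1 and 31.9 TPM (30.2 ± 3.10). Trim12c measured 20.2, 19.9 and 25.1 TPM (21.7 ± 2.95) and Trim5 5.86, 8.03 and 8.6 TPM (7.497 ± 1.45). Trim34b, the near copy of Trim34a, measured 0.66, 1.03 and 1.56 TPM (1.08 ± 0.45). Trim38, a further regulator of TAB2 and TAB3, was not detected, with 1, 1 and 0 counts. The 0 in replicate 3 is compatible with up to 3 counts, or 0.182 CPM (counts scaled to library size) there, which covers counting error only.

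**Figure D2:**
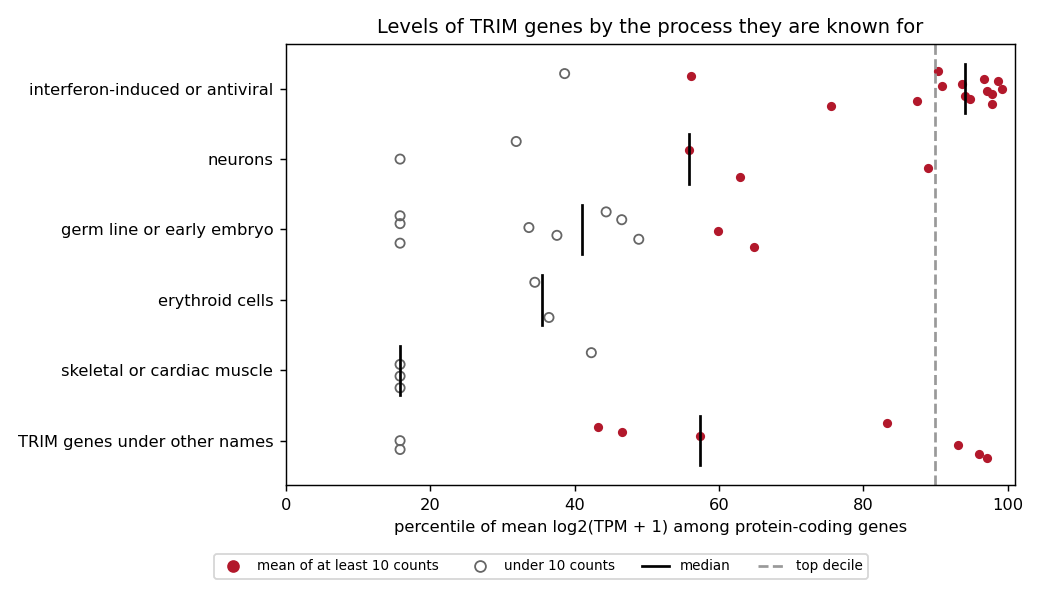
Percentile of each gene's mean log2(TPM + 1) among protein-coding genes, by the process TRIM genes are known for, with filled points for detected genes, black bars for list medians and a dashed line at percentile 90. The interferon list has its median at 94.1 and the muscle list, with 0 of 4 genes detected, at 15.8.

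Of the TRIM genes known for other tissues, those of muscle and erythroid cells were not detected. None of the 4 muscle genes was detected: Trim54, Trim55 and Trim63, the MuRF ligases of the sarcomere, had 0 counts in every library, and Trim72, a membrane repair protein, had 0.10 ± 0.05 TPM. Of 10 germ line or early embryo genes 2 were detected, Trim36 and Trim43c, and Trim42 had 0 counts while Trim43a and Trim43b averaged 8.62 and 0.717 counts. Neither erythroid gene, Trim10 and Trim58, was detected. Of 5 neuronal genes Trim3, Trim2 and Trim46 were detected and Trim9 and Trim67 were not, and Trim3 stood at percentile 88.95.

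By C-terminal domain, the PRY-SPRY genes, whose domain binds the target, had 28 of 38 members detected and 12 in the top decile. Trim10, Trim38 and Trim43a were among those not detected. Genes were placed by list, and the domain was not searched in their coding sequences, so a member may lack it. The coding sequences of Trim12a, Trim30b and Trim15 translated to 297, 203 and 292 residues, against a median of 497 over the 68 genes. The COS-box genes, which bind microtubules, had 2 of 8 detected, with a median of 0 TPM, and Trim9, Trim42 and Trim54 were among those not detected. The groups anchored in membranes (Trim13 and Trim59) and with a MATH or ARF domain (Trim37 and Trim23) had 2 of 2 detected each. Of 7 genes without a known C-terminal domain 3 were detected, Trim56, Trim44 and Trim8, while Trim31 and Trim40 had 0 counts. Trim52 and Trim80 belonged to no group and had 0 counts in the gene tables. Across the family, 25 genes were not detected and 11 had 0 counts in all libraries.

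The chromatin-acting TRIM genes with a PHD finger and a bromodomain had 3 of 4 members detected. Trim24, a co-regulator of nuclear receptors, measured 14.2, 20.4 and 20.5 TPM (18.4 ± 3.60). Trim33, which acts on SMAD4, measured 16.8, 18.1 and 16.5 TPM (17.1 ± 0.83). Trim28, the co-repressor recruited by KRAB zinc finger proteins, measured 11.2, 20.1 and 13.4 TPM (14.9 ± 4.68). The values of these 3 genes overlapped. They sum all transcripts of a gene, and protein-coding transcripts held 37.8% of the TPM in Trim24, 51.3% in Trim33 and 11.8% in Trim28. Trim66, the fourth member, had a mean of 6.33 counts.

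Among the NHL and filamin genes 3 of 5 were detected, and Trim32 and Trim71 were not, with means of 9.33 and 0 counts. Trim3, known from neurons, measured 19.6, 32.5 and 25.9 TPM (25.99 ± 6.48) and was lowest in replicate 1. Trim2 measured 2.67, 2.59 and 1.77 TPM (2.34 ± 0.50) and Trim45 0.36, 0.48 and 0.49 TPM (0.44 ± 0.07). Of the smaller groups, Trim37, the MATH-domain ligase, measured 4.99, 6.18 and 5.88 TPM (5.68 ± 0.62), and Trim13, a ligase of the endoplasmic reticulum, 3.94, 3.86 and 5.25 TPM (4.35 ± 0.78). Trim35 and Trim41, the highest TRIM genes off the interferon list, measured 21.2, 34.1 and 36.3 TPM (30.5 ± 8.13) and 23.3, 33.3 and 31.5 TPM (29.4 ± 5.36). Both were lowest in replicate 1, which in TPM was the lowest library in 64.0% of the detected protein-coding genes.

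TRIM genes were spread unevenly over the genome. Taking genes with gaps of at most 500 kb together gave 8 clusters with 30 of the 68 genes. The cluster at chr7:104218793-104507849 held Trim6, Trim34a, Trim5, Trim12a, Trim34b, Trim12c, Trim30b, Trim30c, Trim30a and Trim30d. All 10 were detected, and they held 748 TPM, 56.3% of the TRIM TPM. The 4 Trim30 genes alone held 37.7%. In the cluster at chr17:36837134-36910214, 2 of 5 genes were detected, Trim26 and Trim15. In the cluster at chr8:64980884-65018584, which holds Trim75, Trim60 and Trim61, 0 of 3 were.

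Genes of the chromosome 7 cluster share sequence, which bears on how reads were divided among them. Aligned coding sequences of its 45 gene pairs were between 63.4% and 98.8% identical, and 5 pairs exceeded 90%. Trim34a and Trim34b were 98.8% identical, Trim12a and Trim5 97.1%, Trim12c and Trim5 96.6%, Trim12a and Trim12c 96.4% and Trim30a and Trim30d 90.2%. Of the distinct 31-base words in its transcripts, Trim34b shared 69.1% with another gene, Trim5 52.9%, Trim34a 48.7%, Trim12c 47.7%, Trim12a 15.7%, Trim30d 11.9% and Trim30a 11.7%. The coding sequence of Trim12a translated to 297 residues against 497 in Trim12c, and that of Trim30b to 203 against 496 in Trim30a. In the authors' deposited score for the spread of the assigned count, the SD was 8.82% of the count in Trim34b, 0.592% in Trim5 and under that in the other 8 genes of the cluster, such as Trim30a at 0.0858%.

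A second deposited quantification, made from the reads, gave higher values for 32 of the 43 detected TRIM genes, against 77.1% of the detected protein-coding genes. The median ratio of its TPM to the gene-table TPM was 1.14, against 1.29 over the detected protein-coding genes. Trim30a measured 322 ± 29.6 TPM there and Trim30d 188 ± 16.8, so their order held. The ratio was highest for Trim34b (3.49), Trim65 (2.27) and Trim6 (2.10), and Trim30b (1.90) also rose, from 32.3 to 61.4 TPM. It was lowest for Trim59 (0.656), Trim23 (0.803) and Trim62 (0.824).

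**Figure D3:**
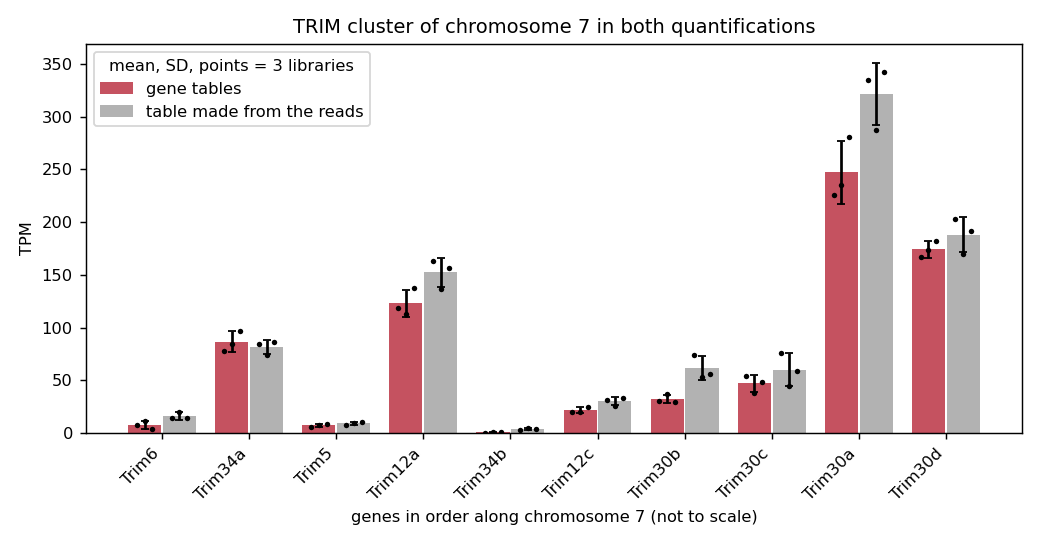
Level in TPM of the 10 TRIM genes of the chromosome 7 cluster, in genome order, from the gene tables (red) and the table made from the reads (grey), with bars for the mean, whiskers for the SD and points for the 3 libraries. Trim30a and Trim30d are the highest in both, and Trim30b reaches 32.3 TPM in the first and 61.4 TPM in the second.

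For each gene a chi-square test set the rounded counts of the 3 libraries against Poisson sampling, with edgeR TMM library sizes. P-values were adjusted by Benjamini-Hochberg over all 14320 annotated genes whose counts averaged 10 or more. Of 43 TRIM genes 27 passed at an adjusted p of 0.05 (62.8%), against 54.9% of all genes tested and 57.7% of the protein-coding ones. The test detects smaller differences at higher counts: 4 of 14 TRIM genes with a mean under 100 counts passed (33.5% of protein-coding genes), 12 of 17 from 100 to 1000 (63.3%) and 11 of 12 at 1000 or more (90.7%). Without replicate 2 the number fell to 13 of 42, and that over all genes to 28.0%. Replicate 2 had the smallest RNA input of the 3, whose part was not tested. The biological coefficient of variation from edgeR had a median of 0.20 in the detected TRIM genes and 0.221 in all genes tested. The trend that edgeR fits against count level had a median of 0.199 in the same TRIM genes.

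Trim14 was the TRIM gene with a mean above 1000 counts that did not pass, with differences from its mean of -0.03, 0.00 and 0.03 in log2 CPM (adjusted p = 0.769 in the chi-square test against Poisson). Trim3 did not pass either, at -0.05, 0.00 and 0.05 (adjusted p = 0.681 in the same chi-square test). Trim30a deviated by 0.15, -0.27 and 0.12 in log2 CPM (adjusted p = 2.22e-115 in the chi-square test). Trim25 deviated by -0.04, -0.13 and 0.16 (adjusted p = 2.38e-32, chi-square test).

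The 5 detected TRIM genes with the largest spread were Trim36, Trim65, Trim6, Trim47 and Trim27. Trim36, known from the sperm acrosome, had 4.04, 1.49 and 3.44 TPM and was low in replicate 2, with an SD of log2 CPM of 0.88. Trim65, the ligase of the RNA sensor MDA5, had 1.56, 5.18 and 2.38 TPM and was high in replicate 2 (SD 0.66). Trim6, which makes unanchored ubiquitin chains for the kinase IKBKE, had 7.44, 11.9 and 3.81 TPM and was low in replicate 3 (SD 0.66). Trim27 had 2.03, 5.59 and 2.97 TPM (SD 0.63) and Trim47 0.33, 0.82 and 0.28 TPM (SD 0.64), both high in replicate 2. Trim47, with a mean of 12.3 counts, did not pass the chi-square test (adjusted p = 0.106 by Benjamini-Hochberg).

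Replicate 2 was the highest library in 14 of the 43 detected TRIM genes in log2 CPM and in 21 in TPM, against 40.9% and 62.6% of the detected protein-coding genes. Trim8, which acts on the kinase TAK1, had 6.11, 15.2 and 4.84 TPM (8.71 ± 5.64), and 5.48 TPM without replicate 2. Trim23, with its ARF domain, had 2.33, 4.57 and 1.99 TPM (2.96 ± 1.40). Trim59 had 0.65, 2.37 and 0.89 TPM (1.30 ± 0.93), and 0.77 TPM without replicate 2. Leaving out replicate 2 also moved Trim65 to 1.97 TPM and Trim47 to 0.305 TPM, and these 4 were the levels of detected TRIM genes that moved by over 1.5 times when a library was left out.

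The interferon list went the other way in replicate 2. In TMM-scaled log2 CPM that library was the lowest in 10 of its 14 detected genes and the highest in 0, against 36.2% and 40.9% of the detected protein-coding genes. The median deviation of the list there was -0.20 log2 CPM, beside 0.02 over the protein-coding genes. Counts were the same, 10 and 0, with DESeq2 size factors, against 37.5% and 39.7% of the detected protein-coding genes. With total counts they were 8 and 1, against 22.9% and 54.7%. In log2(TPM + 1) replicate 2 was the lowest in 4 and the highest in 3, against 14.1% and 62.6% of the detected protein-coding genes. Replicate 1 was the lowest in 8 of the 14, against 64.0%. On that scale the median over the protein-coding genes was 0.17 in replicate 2 and -0.18 in replicate 1, and that of the list was -0.02 and -0.11. The list thus lay below the protein-coding median in replicate 2 in CPM, where the choice of library scaling moves both medians alike, and in TPM, although its rank among the libraries changed.

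**Figure D4:**
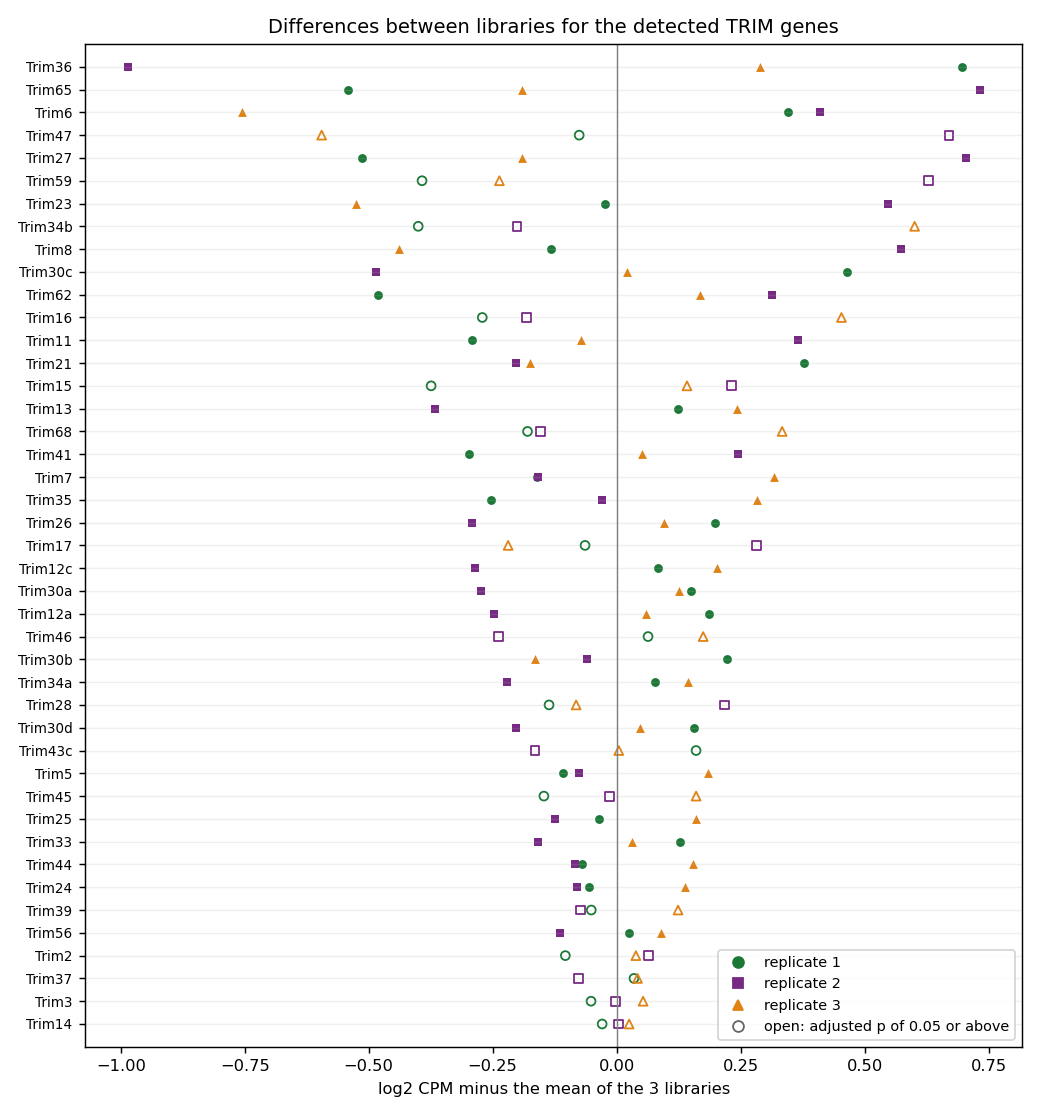
Log2 CPM of each of the 43 detected TRIM genes in replicates 1, 2 and 3 minus the mean of the 3, ordered by spread, with filled symbols for an adjusted p below 0.05. The largest spread is that of Trim36, which lies low in replicate 2, and the smallest that of Trim14.

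TRIM genes differed in the class of transcript that their reads were assigned to. A retained-intron transcript keeps intron sequence and carries no annotated protein. In this chromatin RNA, reads of RNA not yet spliced were not told apart from reads of such transcripts. The shares below therefore do not measure stable retained-intron transcripts alone. In the 25 TRIM genes that averaged 1 TPM or more and had both a protein-coding and another transcript, a median of 41.3% of the TPM lay outside protein-coding transcripts, against 47.7% in 8197 protein-coding genes of the same kind. As a share of expected counts the medians were 20.9% and 27.6%. TPM divides counts by length, so short transcripts weigh more in it.

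The retained-intron share of the TPM was highest in Trim21 (71.1% ± 3.46, SD, n = 3), Trim68 (62.4% ± 10.2), Trim24 (62.2% ± 4.38), Trim28 (62.1% ± 8.18) and Trim3 (62.0% ± 5.09). The shares of their counts were 28.7%, 33.0%, 42.8%, 35.2% and 24.5%. Over 18 TRIM genes with protein-coding and retained-intron transcripts, the median retained-intron share was 43.7% of the TPM and 26.4% of the counts. Over 6285 protein-coding genes of the same kind it was 41.8% and 25.9%. In Trim28 the protein-coding transcripts held 11.8% of the TPM and 44.8% of the counts. In Trim26 they held 13.5% of the TPM and 12.1% of the counts, so its low coding share did not rest on the unit. It did depend on the quantification: the share of its TPM outside protein-coding transcripts was 86.5%, and 71.1% in the table made from the reads. The longest retained-intron transcript of Trim26, 4338 bases, held 50.8% of its counts, and a processed transcript of 2249 bases held 35.6%.

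In Trim12a a retained-intron transcript of 3730 bases held 56.2% of the counts and 27.4% of the TPM. In Trim30a a retained-intron transcript of 314 bases held 0.42% of the counts and 13.7% of the TPM. Trim25, Trim30c, Trim30d and Trim34a have no annotated transcript of another class, so no such share could be measured for them. In 11 of the 43 detected genes the transcript with the highest TPM was not protein-coding, which rests on the unit in part, since in Trim27 that transcript held 25.6% of the TPM and 3.16% of the counts. The same count was not made over all protein-coding genes.

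**Figure D5:**
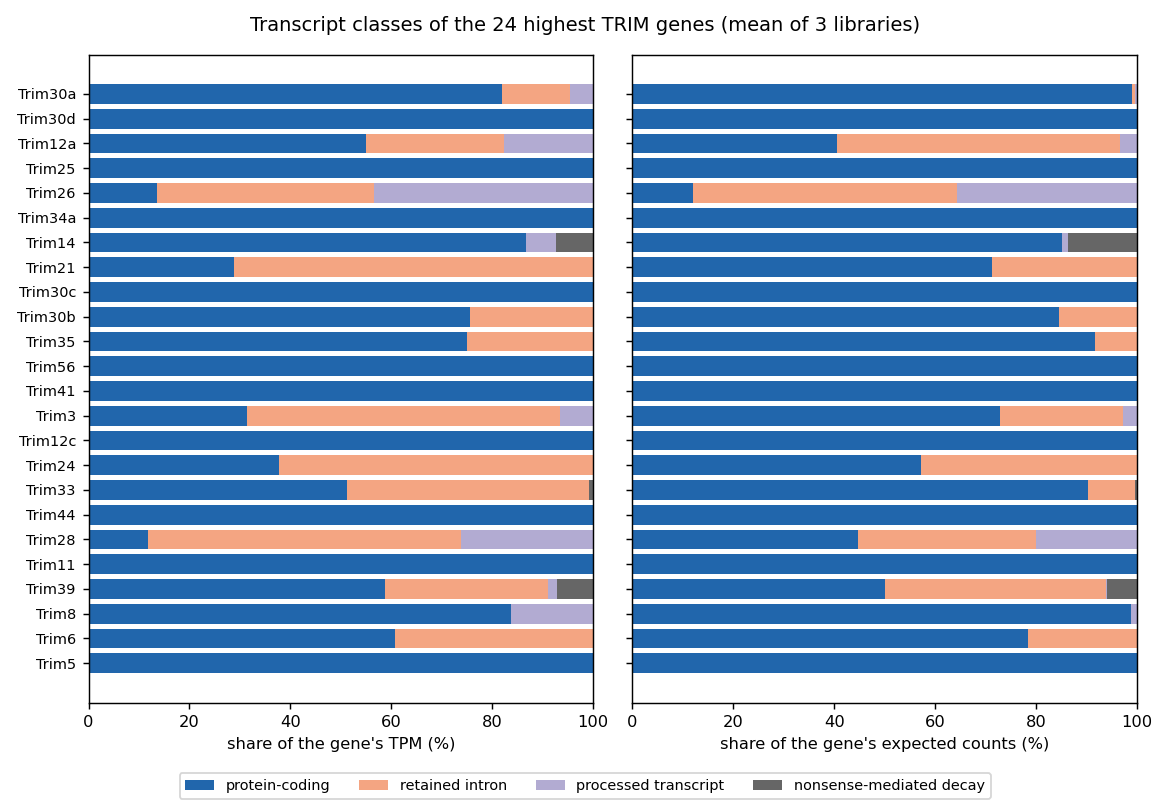
Share in percent of each gene's TPM (left) and expected counts (right) in protein-coding, retained-intron, processed and nonsense-mediated decay transcripts, for the 24 highest TRIM genes as the mean of 3 libraries. Trim26 keeps a small protein-coding share on both sides, while that of Trim28 rises from 11.8% to 44.8%.

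Some TRIM genes overlap others, and whether counting used strand is not given in the sources used here. Trim14 shared 36.3% of its 31-base words with transcripts of the opposite strand, mainly of Nans, so reads of the pair may not be told apart. Trim43c shared 34.1% and Trim34a 21.5% in the same way, mainly with 9330159M07Rik and Gm47248. In Trim41, Trim28 and Trim13, which also lie across from other genes, the share was 0.08%, 0.56% and 0. Trim65 and Trim47 overlap on 1 strand and shared 198 words.

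Translated coding sequences of the 68 genes ran from 203 to 1344 residues with a median of 497. A RING-type spacing of cysteines and a histidine was found in 54 and not in the other 14. Without a match were Trim9, Trim14, Trim16, Trim23, Trim24, Trim29, Trim36, Trim37, Trim41, Trim44, Trim46, Trim52, Trim67 and Trim71. The pattern allowed gaps within set ranges only, so a gene without a match may still encode a RING finger.

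The partners of TRIM proteins were measured beside them. All 13 E2 enzymes listed were detected, with Ube2d3 (166 ± 20.1 TPM) and Ube2d2a (69.9 ± 7.53 TPM) among the highest. All 23 listed targets and partners that were found were detected, 11 of them in the top decile. Among protein-coding genes as a whole, 49.7% reached the detection minimum, and the top decile holds 10% by construction. The lists in this paragraph were chosen with earlier results of these data known, so their counts are a description. The kinase gene Ikbke measured 1193 ± 25.8 TPM and the selective autophagy receptor gene Sqstm1 746 ± 312 TPM. Ddx58, which encodes the Trim25 target RIG-I, measured 251, 220 and 245 TPM (239 ± 16.7). Of 9 TRIM family genes under other names 7 were detected, led by Pml (95.1 ± 13.4 TPM), Mid1 (70.9 ± 7.66 TPM) and Mefv (45.3 ± 15.2 TPM). In the table made from the reads the order of the first 2 turned, with Mid1 at 324 TPM and Pml, the organiser of nuclear bodies, at 159.6 TPM.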

How the data were processed

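Chromatin-fraction RNA was sequenced in 3 libraries of 1 group. The authors deposited gene tables of expected counts and TPM in the layout of RSEM, with a score column for the spread of the assigned count, and transcript tables in the same layout, made from a transcriptome alignment on mm10 with annotation M21, per the deposited notes and file headers. A further transcript table of estimated counts and TPM, in the layout of kallisto, was made by the authors from the reads. The names of the aligner and quantifier are not given in sources used here. Spike-in and phiX entries were left out.

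Counts were rounded for the tests. The chi-square test against Poisson used TMM library sizes from edgeR 4.0.16 over genes that averaged 10 counts or more, and it was checked on simulated data. DESeq2 1.42.0 gave alternative size factors. Log2 CPM used a prior count of 0.5. No contrast was fitted, as there is 1 group, and p-values measure only the spread between these samples. Protein lengths and the RING-type spacing, planned on RefSeq proteins, were computed from GENCODE coding sequences. Promoters came from RefSeq. Named genes were the 15 highest, a fixed set of regulators, the 5 with the largest spread or retained-intron share, the 3 highest and lowest ratios between tables, up to 3 undetected per group and the 3 highest of each partner list. Some listed genes are not reported here. Members and lists were chosen with earlier results of these data known. Trim4, Trim12b, Trim1, Trim18 and Mb21d1 were listed, but no annotated gene has that symbol.

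The alternatives were other detection minimums, CPM, a pseudocount of 0.1, TPM rescaled over protein-coding genes, other normalizations, the quantification from reads, and dropping each library in turn. Chosen after seeing the data was the share of counts in place of TPM.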

Additional observations from a re-analysis of the deposited data

Results flagged for a closer look

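TRIM genes with a mean under 10 expected counts in the gene tables reached at least 10 estimated counts in the table made from the reads in 11 cases of 25, against 34.3% of the protein-coding genes not detected. Trim52 had a mean of 254 estimated counts and 31.2 ± 6.34 TPM there, nearly all in the processed transcript Trim52-202, and 0 counts in the gene tables. Trim63, the muscle ligase MuRF1, had 109 estimated counts, mostly in a retained-intron transcript. Trim67 had 207, Trim43b 82.2, Trim71 61.8 and Trim9 37.6. Trim50 had 30.9, Trim43a 27.6, Trim69 13.7, Trim32 10.7 and Trim58 10.3. Which table is nearer to the RNA present was not tested, and no control sample was available for comparison.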

How the results depend on the processing

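The number of detected TRIM genes stayed between 40 and 54 (43 in the gene tables) under the other minimums, the table made from the reads and with each library left out, and the number in the top decile between 11 and 13. The number whose libraries differed beyond counting noise was 27 of 43, against 54.9% of all genes tested. It was 27 of 43 with DESeq2 size factors (54.7% of all genes) and 25 of 43 with total counts (60.0%). Without a filter it was 22 of 57 (32.5%), and in the table made from the reads 34 of 54 (55.1%). With replicate 1, 2 or 3 left out it was 23 of 44 (43.5%), 13 of 42 (28.0%) and 21 of 45 (41.6%). The median level of the detected genes, 8.71 TPM, was 28.9 TPM when TPM was rescaled over protein-coding genes, and between 7.23 and 10.01 TPM with a library left out. The median share of TPM outside protein-coding transcripts, 41.3%, was 54.4% in the table made from the reads, 20.9% as a share of counts, and between 38.5% and 42.9% with a library left out. Of 43 single levels, 19 moved by more than their SD in the table made from the reads, and 4 moved by over 1.5 times without replicate 2 (Trim8, Trim65, Trim59 and Trim47). No paired analysis was possible because there is 1 group. With 3 libraries of 1 schedule, no level can be tied to Lipid A.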
